A study of Mus musculus with 8 samples.

Results

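The thalamic marker genes examined here are Slc17a6, Amotl1, Tcf7l2, Prkcd, Lef1, Zic1, Ntng1, Rgs16, Plcb4 and Rora, 10 of the 19321 gene symbols on the array. They were picked by name, with earlier results of the same arrays in view, and every probe that the platform annotation pairs with one of these symbols was taken. This gave 13 of the 23473 probes. The RNA came from brains of 8 male C57Bl/6J mice listed as 9 weeks old, hybridised 1 mouse per array with Cy5 label. The control group was 2 mice that drank water and were taken at day 0, and the other groups were 3 mice given trehalose, a disaccharide of glucose, for 1 day and 3 given it for 10 days. Mice of every group were fasted and perfused, and all were of the same strain. Water mice were sampled at day 0 only, so trehalose and the time of sampling cannot be told apart. Cages are not identified.

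The thalamus relays sensory and motor signals to the cerebral cortex through glutamatergic neurons. Unlike most cortical excitatory neurons, these relay cells load glutamate into vesicles with the transporter encoded by Slc17a6, and they share a set of transcription factors and signalling proteins that serves to tell thalamus from cortex. By the treatment protocol the tissue was cerebral cortex and neocortex, but by the design it was a whole left hemisphere. Of the 13 member probes, 12 lay above the blank limit (the mean of the empty spots plus 2 SD) on all 8 arrays, as did all 13 probes of a list of cortical excitatory neuron genes, all 11 of a striatum list and all 7 of a choroid plexus list. Genes used as markers of several regions were thus measurable, though none of these lists is exclusive to its region. In bulk tissue, fewer cells of a type and less RNA per cell cannot be told apart.

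The exception was Tcf7l2, a transcription factor of the Wnt pathway that is a defining gene of thalamic neurons. Its single probe was above the blank limit on 0 of 8 arrays, and its spot was 0.941 to 1.02 times the mean of the blank spots. Its log2 intensity, 5.72 to 5.76 over all arrays, is that of background, so the probe was not well above background in any group and was left out of the tests. The remaining 12 probes covered 9 genes. Amotl1, Plcb4 and Rora had 2 probes each. The other tested spots were between 1.58 (Lef1) and 25.9 (Prkcd) times the blank mean at the median over arrays.

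Arrays ranged from 86.3% to 92.1% of probes above the blank limit, and log2 intensities of all tested probes correlated between arrays with a Pearson's r of 0.994 to 0.998. By limma over 21583 tested probes, 0 probes of any gene passed an adjusted p of 0.05 in any of the comparisons below. Without adjustment, 787 probes had a p under 0.05 at 1 day against control, 432 at 10 days against control and 756 between the times. All log2 intensities below include an offset of 50, which compresses changes of dim probes such as those of Lef1.

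Slc17a6 encodes the vesicular glutamate transporter VGLUT2. Its log2 intensity was 8.91 and 9.02 in the control mice, 9.33, 9.74 and 9.38 after 1 day, and 9.37, 9.23 and 9.34 after 10 days. Each of the 6 trehalose arrays lay above both controls, and the highest was trehalose 1 day replicate 2. The group means were 8.96 ± 0.08 (SD, n = 2), 9.48 ± 0.22 (SD, n = 3) and 9.31 ± 0.07 (SD, n = 3). The difference from control was 0.52 on the log2 scale (SE 0.12, 1.43-fold) at 1 day and 0.35 (SE 0.12, 1.28-fold) at 10 days. Since the gene was chosen with these values known, they are a description. Without trehalose 1 day replicate 2 the difference at 1 day was 0.39, and without both that array and control replicate 1 it was 0.34. With the scanner's local background column subtracted, the 1-day difference turned to -0.58 and the 10-day difference was 0.08. Between the times it turned to 0.66. Across spots, log intensities of that column and of the spots correlated at 0.936 to 0.983 on each array.

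Amotl1, an angiomotin family gene of cell junctions, was read by 2 probes. The brighter, M400013195, gave log2 intensities of 7.89 and 7.88 in control, 8.13, 8.20 and 8.02 after 1 day, and 8.05, 8.02 and 8.02 after 10 days. Here too all 6 trehalose arrays stood above both controls. The means were 7.88 ± 0.01 (SD, n = 2), 8.11 ± 0.09 (SD, n = 3) and 8.03 ± 0.02 (SD, n = 3), differences of 0.23 (SE 0.05) at 1 day and 0.15 (SE 0.05) at 10 days. The 1-day difference turned to -0.23 with the local background column. The dimmer probe, M200011021, at 1.65 times the blank mean, ranged from 6.14 to 6.25 over all arrays, its groups overlapped, and its differences were 0.04 (SE 0.04) and 0.03 (SE 0.04).

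**Figure D1:**
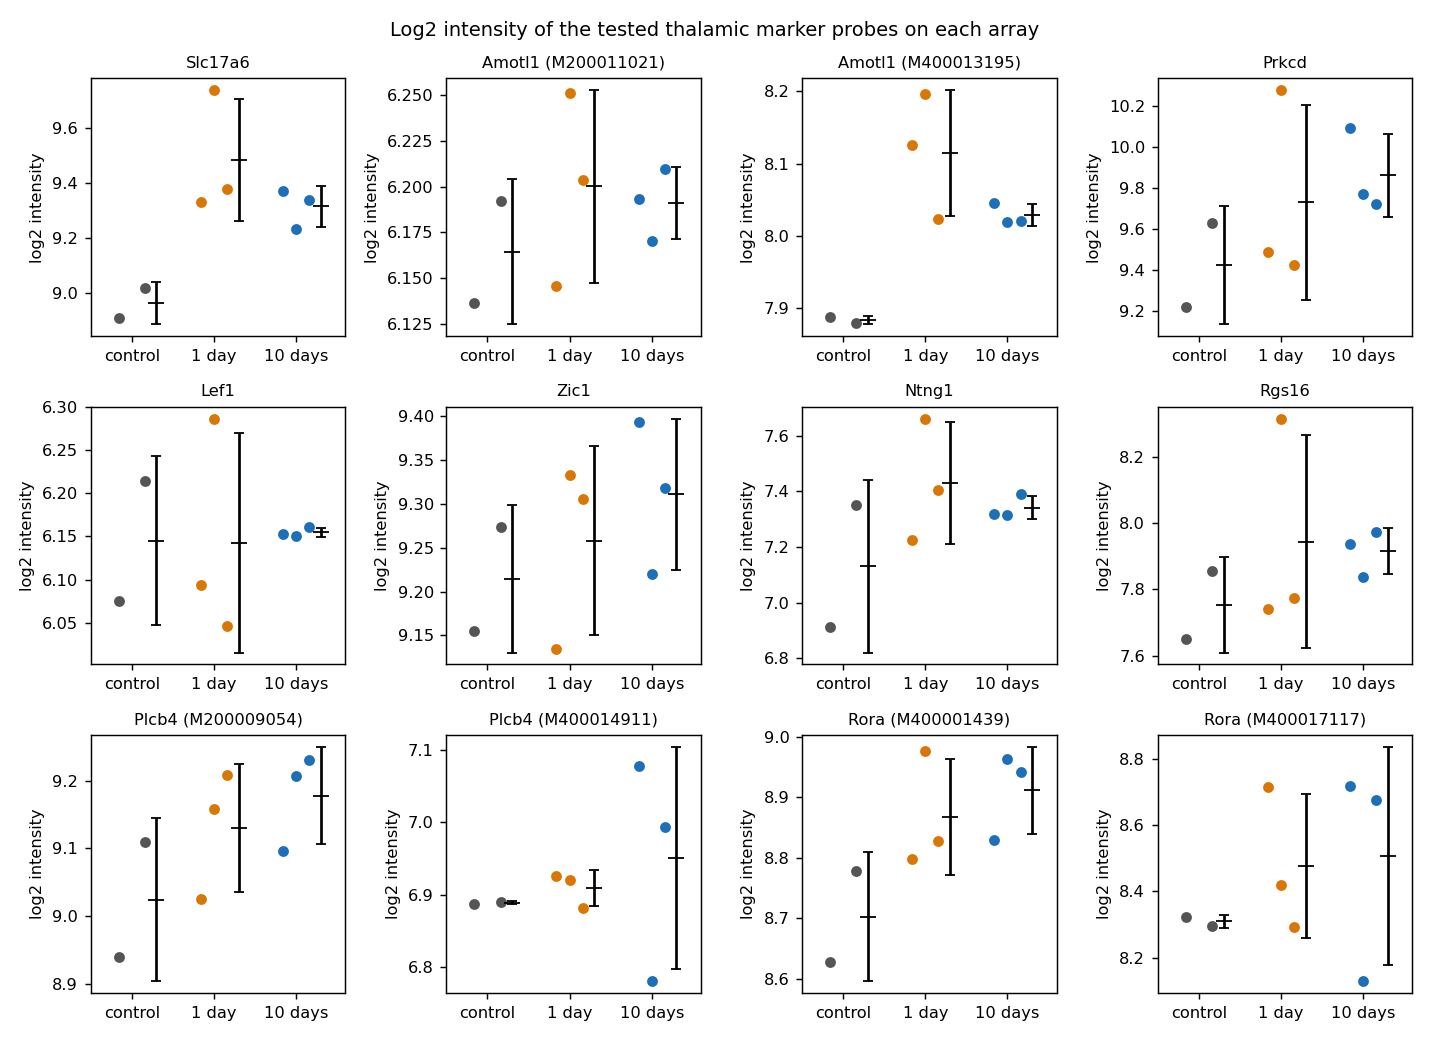
Log2 intensity (y axis) of the 12 tested probes in control, 1-day and 10-day mice; points are single arrays and the black mark with bars is the group mean ± SD. Each y axis has its own range. For Slc17a6, Amotl1 probe M400013195 and Rora probe M400001439 all 6 trehalose arrays lie above both controls, while for most others the groups overlap.

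Rora encodes a nuclear receptor that is present in thalamic relay neurons and in cerebellar Purkinje cells. Probe M400001439 gave 8.63 and 8.78 in control, 8.80, 8.98 and 8.83 after 1 day, and 8.83, 8.96 and 8.94 after 10 days, with all trehalose arrays above both controls. The distance between the higher control and the lowest 1-day array was small beside the spread within control (SD 0.11). Differences from control were 0.16 (SE 0.07) and 0.21 (SE 0.07). Without control replicate 1 they were 0.09 and 0.13, and with the local background column -0.07 and 0.28. The other probe, M400017117, gave 8.32 and 8.30 in control, 8.72, 8.42 and 8.29 after 1 day, and 8.72, 8.13 and 8.68 after 10 days, so that both trehalose groups reached from below the controls to well above them. Its differences were 0.17 (SE 0.19) and 0.20 (SE 0.19), and they turned to -0.59 and -0.46 with the local background column. The 2 probes did not vary together over the 8 arrays (Pearson's r = 0.02), which leaves the level of Rora in single mice uncertain.

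Prkcd, which encodes protein kinase C delta and marks relay neurons, differed more between mice than any other member. It measured 9.22 and 9.63 in control, 9.49, 10.28 and 9.42 after 1 day, and 10.09, 9.77 and 9.72 after 10 days. The 1-day group spanned nearly the whole range, with 2 of its 3 arrays below the higher control, whereas all 10-day arrays lay above both controls. The means were 9.42 ± 0.29 (SD, n = 2), 9.73 ± 0.48 (SD, n = 3) and 9.86 ± 0.20 (SD, n = 3), and the differences from control were 0.31 (SE 0.26) and 0.44 (SE 0.26). At 1 day 0.03 remained when trehalose 1 day replicate 2 was left out. Leaving out control replicate 1 gave 0.10 at 1 day and 0.23 at 10 days, and the local background column gave 0.80 at 10 days. Both 95% intervals included 0, reaching from -0.30 to 0.91 and from -0.17 to 1.04. The pooled SD within groups, 0.35, exceeded that of 99.7% of all tested probes, whose median was 0.064.

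Ntng1 encodes netrin-G1, a membrane-anchored protein of thalamocortical axons. It measured 6.91 and 7.35 in control, 7.23, 7.66 and 7.40 after 1 day, and 7.32, 7.32 and 7.39 after 10 days. Control replicate 1 stood apart below all other arrays, and control replicate 2 lay among the trehalose mice. Differences of 0.30 (SE 0.15) and 0.21 (SE 0.15) became 0.08 and -0.01 without control replicate 1, and 0.15 and -0.09 with the local background column. Rgs16, an activator of G alpha GTPase activity that ends G-protein signals, measured 7.65 and 7.85 in control, 7.74, 8.31 and 7.78 after 1 day, and 7.94, 7.84 and 7.97 after 10 days. Only trehalose 1 day replicate 2 stood clear of the rest, and without it the 1-day difference went from 0.19 (SE 0.16) to 0.0054. The 10-day difference was 0.16 (SE 0.16). Without control replicate 1 the differences were 0.09 and 0.06, and with the local background column 0.04 and 0.11.

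Plcb4 encodes a phospholipase C that acts downstream of Gq-coupled receptors, among them the metabotropic glutamate receptor of thalamic neurons. Its brighter probe, M200009054, gave 8.94 and 9.11 in control, 9.03, 9.16 and 9.21 after 1 day, and 9.10, 9.21 and 9.23 after 10 days, with groups that overlapped. The differences were 0.11 (SE 0.07) and 0.15 (SE 0.07). They were 0.02 and 0.07 without control replicate 1, and turned to -0.41 and -0.07 with the local background column. Its other probe, M400014911, was at 6.89 in both controls, at 6.88 to 6.93 after 1 day and at 6.78 to 7.08 after 10 days, with differences of 0.02 (SE 0.08) and 0.06 (SE 0.08) that turned to -0.20 and -0.09 with the local background column. Over the 8 arrays these 2 probes had a Pearson's r of -0.09.

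Zic1, a zinc finger transcription factor of the dorsal neural tube that is also abundant in cerebellum and meninges, measured 9.15 and 9.27 in control, 9.13, 9.33 and 9.31 after 1 day, and 9.39, 9.22 and 9.32 after 10 days. The 3 groups overlapped, with differences of 0.04 (SE 0.08) and 0.10 (SE 0.08). Without control replicate 1 these were -0.02 and 0.04. Lef1, the second Wnt-pathway transcription factor of the set and one also active in brain endothelium, measured 6.08 and 6.21 in control, 6.09, 6.29 and 6.05 after 1 day, and 6.15, 6.15 and 6.16 after 10 days. Its group means were 6.15, 6.14 and 6.15, and its differences were -0.0027 (SE 0.07) and 0.0095 (SE 0.07).

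Across the 12 tested probes, 11 were higher than control after 1 day and 12 after 10 days, where 49.7% and 48.6% of all tested probes were higher. The median difference of the members was 0.17 at 1 day and 0.16 at 10 days, beside medians of -0.0003 and -0.0017 over all probes. At 1 day 3 of 12 member probes lay above control without overlap, against a background of 8.97% of all probes, and at 10 days 4 of 12 did, against 6.46%. By limma 0 of 12 passed the adjusted threshold in either comparison, where the background was also 0%. Without adjustment 2 had a p under 0.05 at 1 day (Slc17a6 and Amotl1, background 3.65%) and 3 at 10 days (those and Rora, background 2%). With the local background column 4 of 12 were higher at 1 day and 8 of 12 at 10 days. These comparisons were in view when the members were chosen and share their 2 control arrays, so nothing is read from these shares or from the likeness of the 2 comparisons.

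**Figure D2:**
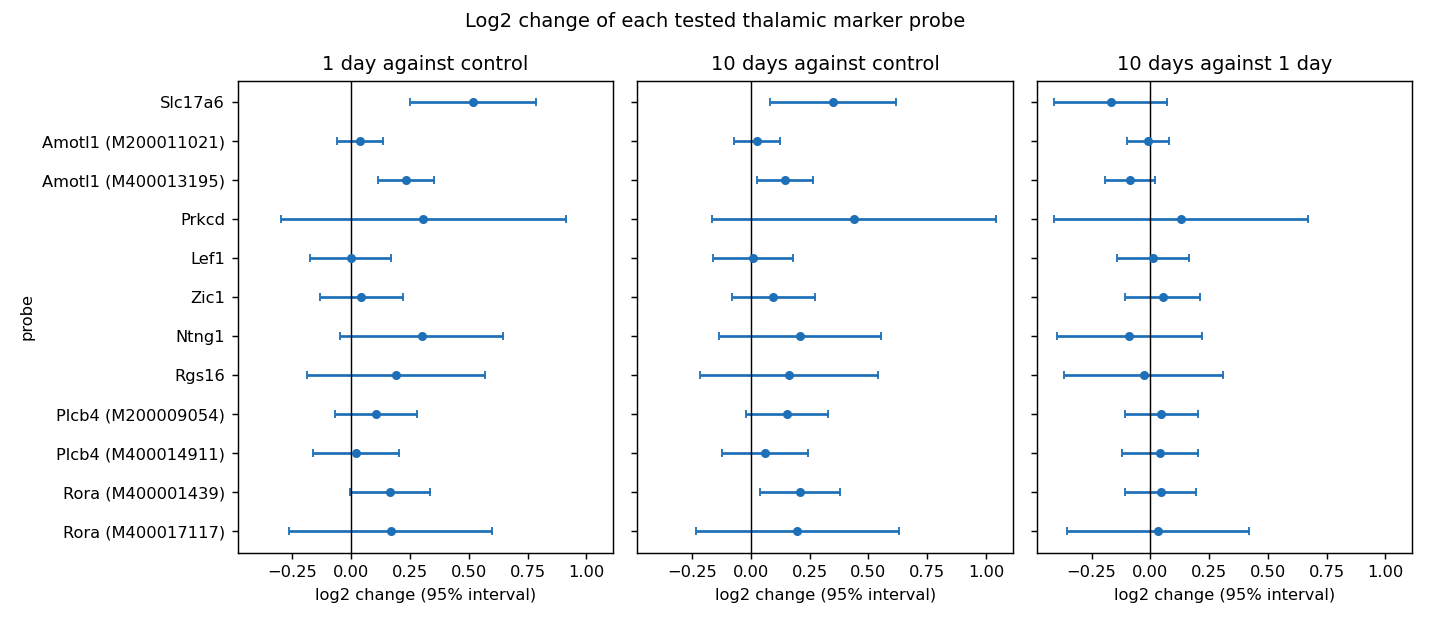
Log2 change (x axis, points) with 95% intervals (bars) of each tested probe (y axis) in the 3 comparisons. Against control the intervals of Slc17a6 and of Amotl1 probe M400013195 lie above 0 at both times, and between the times all 12 intervals include 0.

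The comparison of 10 days with 1 day shares no control array. Of the 12 probes 7 were higher and 5 lower at 10 days, with a median difference of 0.02 beside -0.0015 over all probes. No member passed by limma (0 of 12, background 0%), 0 of 12 did at an unadjusted p under 0.05 (background 3.5%), and for 0 of 12 did the groups not overlap (background 8.39%). Slc17a6 had a difference of -0.17 (95% interval -0.41 to 0.07) and Amotl1 probe M400013195 one of -0.09 (-0.19 to 0.02). The largest difference upwards was that of Prkcd, 0.13 (-0.41 to 0.67).

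The members were also set side by side mouse by mouse. Deviations from each gene's mean over the 8 arrays were computed for the 9 measured genes, averaging probes of a gene. Averaged over genes, the deviation was -0.23 in control replicate 1 and -0.05 in control replicate 2. It was -0.06, 0.24 and -0.04 in trehalose 1 day replicates 1, 2 and 3, and 0.10, -0.03 and 0.06 in the 10-day replicates. Control replicate 1 was thus the lowest array and trehalose 1 day replicate 2 the highest, and the other 6 lay within a narrower band in which water and trehalose mice overlapped. These deviations hold the differences between control and trehalose that were known when the members were chosen, so the place of the controls is a description. Trehalose 1 day replicate 2 was the highest array for 6 of the 9 genes and control replicate 1 the lowest for 7 of 9. The means were -0.14 ± 0.13 (SD, n = 2) in control, 0.05 ± 0.17 (SD, n = 3) at 1 day and 0.04 ± 0.06 (SD, n = 3) at 10 days.

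**Figure D3:**
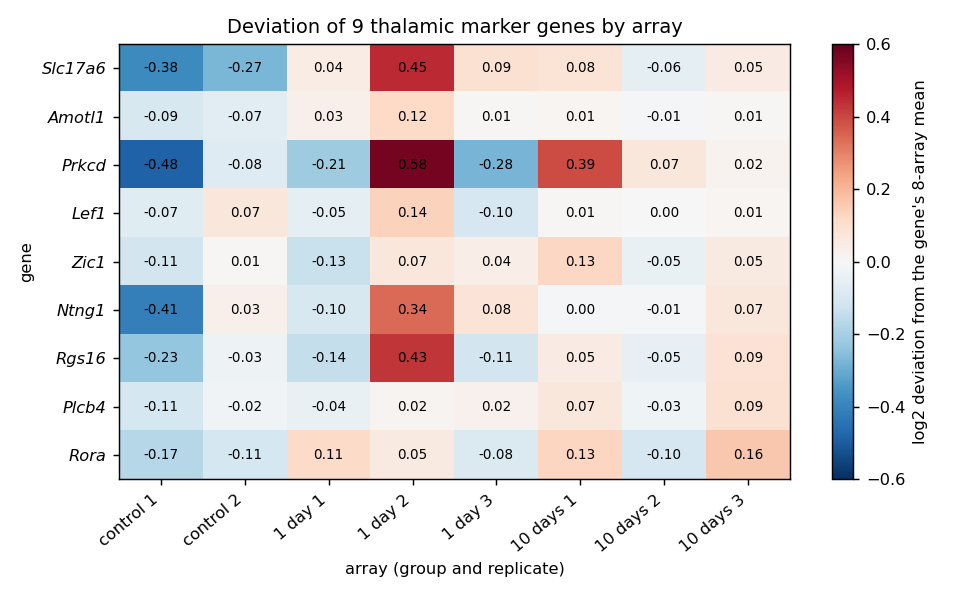
Log2 deviation of each measured gene (rows) from its own mean over 8 arrays (columns), red above and blue below. Control replicate 1 is lowest for 7 of the 9 genes and trehalose 1 day replicate 2 highest for 6 of 9, with the widest swings in Prkcd.

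All 36 pairs of measured members correlated above 0 over the 8 arrays, with a median Pearson's r of 0.66 and a range from 0.25 (Lef1 and Rora) to 0.99 (Amotl1 and Slc17a6). After removal of the group means the median was 0.68 and all 36 stayed above 0. Prkcd and Rgs16 had r = 0.90. Against the mean of the other members, Rgs16 had the highest r, 0.92, and Rora the lowest, 0.57. Rora and Plcb4 each entered as an average of 2 probes that did not vary together (r = 0.02 and -0.09). Amotl1, which is in the highest pair, also entered as an average of 2 probes, with r = 0.48 between them. The members were picked as markers of the same region, the points are 8 arrays shared by all genes, and these correlations only describe them.

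The size of the set's difference from control rested on the same arrays. Without trehalose 1 day replicate 2 the median at 1 day was 0.06, and without control replicate 1 it was 0.08. Without both, an exclusion chosen after seeing the data, it was -0.0053, with 6 of 12 probes above control. At 10 days it was 0.06 without control replicate 1, with 9 of 12 higher. Slc17a6 at 0.34 and Amotl1 probe M400013195 at 0.19 were above control at 1 day under that exclusion, as was Rora probe M400017117 at 0.21, whereas Prkcd stood at -0.17, Rgs16 at -0.10 and Ntng1 at -0.04. Only control replicate 2 is then left as control, so these values have no spread among controls behind them.

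**Figure D4:**
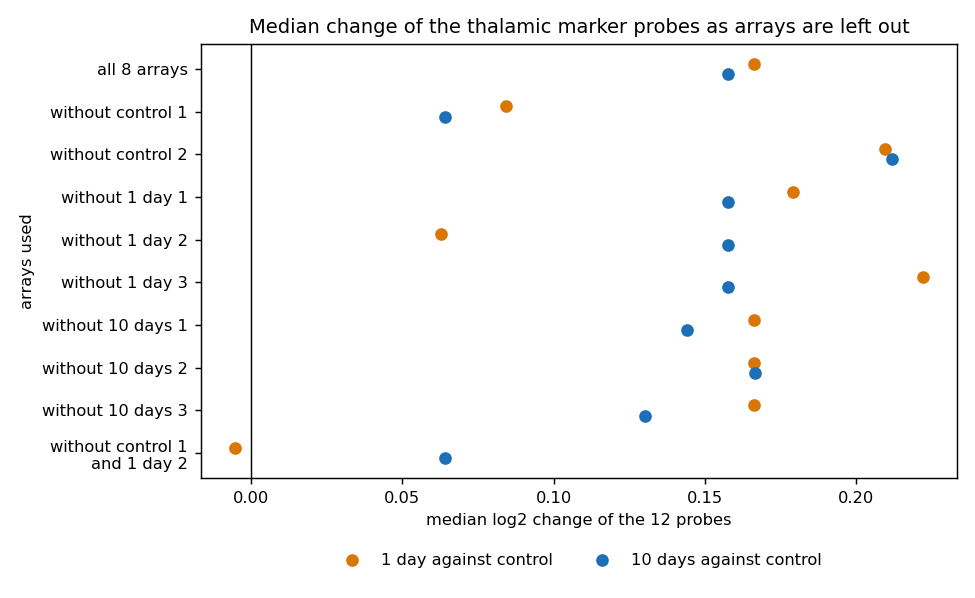
Median log2 change of the 12 probes (x axis) at 1 day (orange) and 10 days (blue) against control, with all 8 arrays and with arrays left out (y axis). The 1-day median goes from 0.17 to -0.0053 without control replicate 1 and trehalose 1 day replicate 2, and the 10-day median to 0.06 without control replicate 1.

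Genes of other brain regions differed between the same arrays. In a list of 15 further thalamus genes that holds no member, the mean deviation was -0.14 in control replicate 1, the lowest array. It was 0.17 in trehalose 1 day replicate 2, the highest array. Like the other lists here, this list was written with earlier results of these arrays known, so its values are a description. Trehalose 1 day replicate 2 was highest for 9 of the 15 and lowest for 1. Control replicate 1 was lowest for 6 and highest for 2. Of the 16 probes, 0 passed by limma at 1 day, and 3 were higher and 0 lower at an unadjusted p under 0.05 (background 3.65%). In that comparison 11 were higher than control and 5 lower (49.7% of all tested probes were higher), and the median was 0.07. At 10 days 1 was higher at an unadjusted p under 0.05 (background 2%), and the median was 0.09. Gbx2, a homeobox gene that specifies thalamic neurons, had a 1-day difference of 0.22 (SE 0.06), and Calb2, which encodes the calcium-binding protein calretinin, one of 0.46 (SE 0.15).

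Striatum genes had their lowest values on the array where the members were highest. The mean deviation of 10 striatum genes was -0.74 in trehalose 1 day replicate 2, which was the lowest array for 10 of 10 genes, and 0.33 and 0.30 in control replicate 1 and trehalose 1 day replicate 1. Drd1, a dopamine receptor gene of striatal projection neurons, measured 6.81 in trehalose 1 day replicate 2 and 7.46 to 7.84 on the other arrays. Ppp1r1b, a phosphatase inhibitor gene of the same neurons, measured 10.32 there against 11.02 to 11.78. Of 11 striatum probes 0 were higher than control at 1 day (median -0.33) and 3 at 10 days (median -0.10). Scn4b had a 1-day difference of -0.15 (SE 0.06). The mean deviation of 7 choroid plexus genes ran from -0.20 in control replicate 1 to 0.30 in trehalose 1 day replicate 2. At 1 day Aqp1, a water channel gene, differed by 0.20 (SE 0.07) and Clic6 by 0.12 (SE 0.06). Of the 7 choroid plexus probes 6 were higher at 1 day (median 0.12) and 7 at 10 days (median 0.14). Ttr, the defining choroid plexus gene, was at 902 times the blank mean and had a 1-day difference of -0.01 (SE 0.13). The mean deviation of 12 cortical excitatory genes stayed between -0.05 and 0.05 on all arrays, while single genes differed more. At 1 day Mef2c, a transcription factor gene, differed by -0.30 (SE 0.10) and Camk2a, a synaptic kinase gene, by -0.13 (SE 0.08). Of 13 such probes 2 were higher at 1 day (median -0.07) and 3 at 10 days (median -0.09). The part of these other regions in the members' values was not tested.

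**Figure D5:**
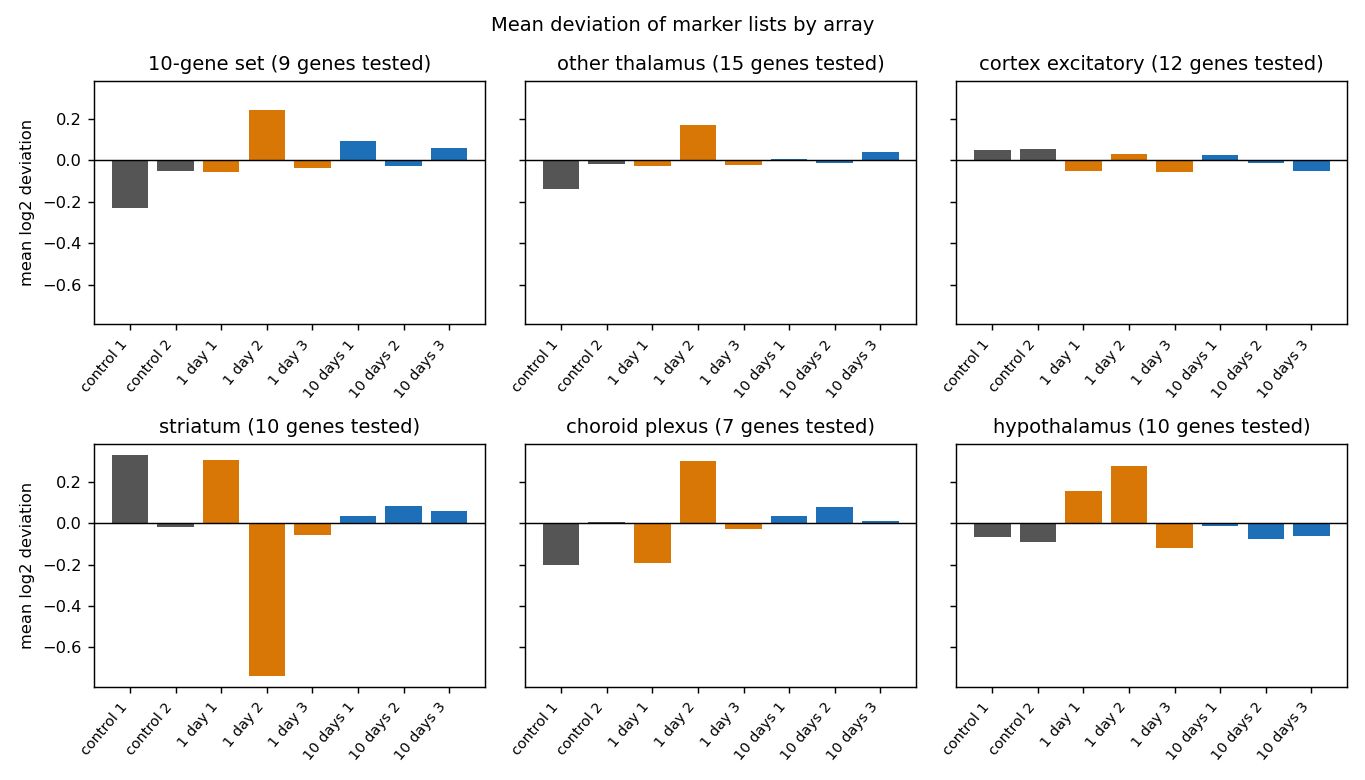
Mean log2 deviation (y axis) of the measured genes of 6 lists on each of the 8 arrays (x axis; grey control, orange 1 day, blue 10 days). Trehalose 1 day replicate 2 is highest in both thalamus lists, in choroid plexus and in hypothalamus, and lowest in striatum at -0.74.

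The mean deviation of hypothalamus genes was also highest in trehalose 1 day replicate 2, at 0.28, but control replicate 1, at -0.07, was not the lowest array. Avp, the vasopressin gene, had a 1-day difference of 0.74 (SE 0.22) and Pomc, a hormone precursor gene, one of 0.24 (SE 0.11). Of 10 hypothalamus probes 9 were higher at 1 day (median 0.10) and 5 at 10 days (median 0.0010). Oligodendrocyte genes were highest on the same array. Their mean deviation ranged from -0.08 in trehalose 1 day replicate 1 to 0.12 in trehalose 1 day replicate 2, where 9 of 9 genes lay above their own mean. Of their 11 probes 6 were higher and 5 lower than control at 1 day, with a median of 0.0024, and the 2 of lowest p were Aspa at 0.15 (SE 0.05) and Mal at 0.26 (SE 0.16) at 1 day. Habenula genes, from the nucleus next to the thalamus, had their highest mean deviation in control replicate 1, at 0.09. It was 0.07 in trehalose 1 day replicate 2. The 1-day median of these genes was -0.0056 over 8 probes, with Nwd2 at -0.11 (SE 0.07) and Slc5a7, a choline transporter gene, at -0.07 (SE 0.09). Hippocampus genes had a median of 0.04, with Zbtb20 at 0.19 (SE 0.08) and Wfs1 at -0.24 (SE 0.14). Their mean deviation was also highest in trehalose 1 day replicate 2, at 0.11. In the cerebellum list, relevant because Zic1, Rora and Plcb4 are also cerebellar, the median was -0.0085 and Cbln1 stood at 0.27 (SE 0.13) and Barhl1 at -0.39 (SE 0.24). Meninges genes had a median of -0.0046, with the matrix gene Dcn at 0.27 (SE 0.10) and Col1a1 at -0.06 (SE 0.04), and endothelial genes one of -0.06, with Itm2a at -0.21 (SE 0.11) and Tek at -0.06 (SE 0.04). In none of these lists did a probe pass by limma.

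Genes that work with the members were taken from lists of their pathways. Tcf7l2 and Lef1 are the DNA-binding partners of beta-catenin in Wnt signalling. Of 17 probes of that pathway, 0 passed at 1 day, 0 were higher and 1 lower at an unadjusted p under 0.05, and the median was -0.0048. At 10 days 8 were higher and 9 lower, with a median of -0.0054. Gsk3b, a kinase that marks beta-catenin for breakdown, had a 1-day difference of -0.22 (SE 0.08) and the co-receptor Lrp5 one of 0.08 (SE 0.04). Plcb4, Prkcd and Rgs16 belong to Gq and calcium signalling. Of 16 further probes of that pathway 4 were higher and 12 lower than control at 1 day, with a median of -0.05, and 7 were higher and 9 lower at 10 days, with a median of -0.01. Between the times 10 were higher and 6 lower at 10 days, with a median of 0.03. Of all tested probes 49.7% were higher at 1 day and 48.6% in each of the other comparisons, and 0 of the 16 passed in any of the 3. Rgs4, like Rgs16 a regulator of G-protein signals, had a 1-day difference of -0.30 (SE 0.12) and Plcb1 one of -0.12 (SE 0.06). Among 25 probes of paralogs of the members 11 were higher and 14 lower at 1 day, with a median of -0.0057, and 12 were higher and 13 lower at 10 days, with a median of -0.0008.

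The genes most like the set were those with the highest Pearson's r over the 8 arrays against the mean of the members' z-scores. They were Adamts15 (r = 0.96), Acot7 (0.95), Tmem74 (0.95), Ksr1 (0.93), Nrbp1 (0.93), Cbln1 (0.93), Shox2 (0.92) and Crygn (0.92). Shox2 belongs to the list of further thalamus genes. It measured 6.94 in control replicate 1, 7.68 in trehalose 1 day replicate 2 and 7.19 to 7.31 on the other arrays. Cbln1 belongs to the cerebellum list. It measured 8.18 in control replicate 1, 8.76 in trehalose 1 day replicate 2 and 8.35 to 8.65 on the other arrays. The remaining most alike genes are in none of the lists. The most opposed genes were Mctp1 (r = -0.98), Ttl (-0.95), Fbxo32 (-0.95) and Mdm4 (-0.93). With this many probes and 8 arrays, high values arise in both directions, and they are given as a description.

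The sequence before the start is shown for the 4 members with the widest range over arrays, Prkcd, Slc17a6, Ntng1 and Rgs16. A part of this sequence in the members' values was not tested. The sequences are the 250 bases before the most upstream RefSeq start of each gene, build GRCm38.p6, 5′ to 3′ on the gene's strand. They lie at chr14:30626209-30626458 on the minus strand for Prkcd, chr7:51621580-51621829 on the plus strand for Slc17a6, chr3:110143473-110143722 on the minus strand for Ntng1 and chr1:153740103-153740352 on the plus strand for Rgs16. Capitals mark matches to the core motif of the TCF/LEF factors, CTTTGA, or to the half-site of the ROR receptors, AGGTCA, on either strand.
Prkcd: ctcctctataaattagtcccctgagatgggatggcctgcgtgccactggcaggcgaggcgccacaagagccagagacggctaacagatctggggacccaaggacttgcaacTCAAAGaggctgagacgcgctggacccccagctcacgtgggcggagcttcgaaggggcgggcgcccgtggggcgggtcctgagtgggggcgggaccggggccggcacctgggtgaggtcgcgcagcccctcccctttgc
Slc17a6: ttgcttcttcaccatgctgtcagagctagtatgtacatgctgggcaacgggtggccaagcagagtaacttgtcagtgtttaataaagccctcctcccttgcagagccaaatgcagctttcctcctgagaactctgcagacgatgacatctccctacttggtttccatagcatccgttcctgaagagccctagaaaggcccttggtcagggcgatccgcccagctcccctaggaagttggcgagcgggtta
Ntng1: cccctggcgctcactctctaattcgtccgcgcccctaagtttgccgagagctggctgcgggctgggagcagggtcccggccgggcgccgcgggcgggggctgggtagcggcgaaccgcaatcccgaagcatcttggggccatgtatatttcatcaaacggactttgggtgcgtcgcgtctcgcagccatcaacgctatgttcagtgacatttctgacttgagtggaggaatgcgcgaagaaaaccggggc
Rgs16: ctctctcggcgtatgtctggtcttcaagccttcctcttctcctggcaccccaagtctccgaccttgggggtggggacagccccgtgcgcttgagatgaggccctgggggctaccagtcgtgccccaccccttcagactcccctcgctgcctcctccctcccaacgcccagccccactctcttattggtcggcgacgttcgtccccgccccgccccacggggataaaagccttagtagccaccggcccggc

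All 10 members had such a window. CTTTGA was found in 1 of 10, that of Prkcd, where its reverse complement starts at position -139 from the start, and in 14.1% of 27026 windows of the same length. AGGTCA was found in 0 of 10, against 13.8% of all windows. The motifs did not overlap. A match is a description of the letters, and its absence says only that they are not in this stretch.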

How the data were processed

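RNA of 8 mouse brains was measured on 8 one-colour Cy5 arrays. Per the file headers, the deposited scanner files hold for each spot the median pixel intensity, read at 3 gains and joined by linear fits, besides a background intensity around it and flags. The scanner, its date and the slide are not given in the sources used here. The authors' processed intensity table, linear in scale, was an alternative.

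Spot medians were corrected by normexp (offset 50, fitted on all spots), 10 flagged probe spots were set to missing, probes were quantile normalized on the log2 scale, and spots of a probe were averaged, with limma 3.58.1 in R 4.3.3. A probe was tested when 2 or more arrays had it over a limit set from the 2736 blank spots, their mean plus 2 SD (21583 of 23473 probes). Of the probes, 20690 had 1 symbol, 2783 had none and 0 had several; symbols were updated through gene identifiers, and probes of a gene were kept apart. All 8 arrays entered 1 limma fit of 3 groups (5 residual degrees of freedom, eBayes, Benjamini-Hochberg over all probes, threshold 0.05). The number of arrays limits the precision. Nothing says how mice were assigned, and replicates are single mice.

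The members, the marker and pathway lists and the settings were chosen with earlier results of these data known. All members were named, with the 2 probes of lowest p at 1 day of each other list, and the 8 most alike and 4 most opposed genes. Clone names and numbered gene models were not named; Drd1, Ttr and the exclusion of 2 arrays together were chosen after their values were seen. The procedure was tested on simulated data with noise drawn separately for each probe. Those data held no shifts shared by many genes of an array, so nothing is read from them about the members. Promoter sequences came from RefSeq, GRCm38.p6. Alternatives covered background, normalization, filter, variances, weights, block, description number, groups fitted and each array left out.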

Additional observations from a re-analysis of the deposited data

How the results depend on the processing

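Of 720 recomputed log2 changes of single member probes, 685 stayed within 1 SD of the spread between replicates and 47 turned sign, 18 of them with the local background column. Part of the 720 could not move, so the share that stayed is no measure of stability. The filter, the variances and the groups fitted leave a log2 change as it is. So does leaving out an array that is not in the comparison. No member probe was called under any of these settings. With the local background column the median of the members was -0.038 at 1 day and 0.052 at 10 days against control. Between the times it was 0.12, beside -0.0072 over all probes. With the authors' table the members' median between the times was also 0.12, but there the median of all probes was 0.08. The cause was not tested. Subtraction of the blank mean, and trend and robust variances, each called 1 probe of all probes at 10 days against control and between the times, and the cause was not tested. Leaving out 1 array gave medians from 0.063 to 0.22 at 1 day, from 0.064 to 0.21 at 10 days and from -0.03 to 0.05 between the times, and calls over all probes from 0 to 2. Without control replicate 1 and trehalose 1 day replicate 2 together, chosen after seeing the data, the medians were -0.0053 and 0.064, and 2 probes of all probes were called against control at each time.

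Replicate numbers were shared between groups. Deviations of same-numbered arrays had a median r of 0.22 over 7 pairs, with a range from -0.03 to 0.26. Those of differently numbered arrays had a median r of -0.08 over 14 pairs, with a range from -0.31 to 0.21. Deviations were taken from group means, so those of the 2 control arrays are equal and opposite. With trehalose 1 day replicate 1, control replicate 1 had r = 0.26 and control replicate 2 had r = -0.26. Part of the contrast between the kinds of pair is thus built in, and the pairs are not independent. Nothing is read from the contrast, and a link by replicate number was not tested. The numbers were not taken as pairs in the main fit. With the replicate block the medians were 0.17, 0.18 and 0.02 and 0 probes were called. Dim probes, such as those of Lef1 and Amotl1 M200011021, limit what changes could be seen.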
